A study of Mus musculus with 3 samples.

Results

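The glucose and monocarboxylate solute carriers described here are the genes of the Slc2, Slc5 and Slc16 families, chosen as every gene whose symbol begins with Slc2a, Slc5a or Slc16a followed by a digit and that stands alone on a probe set. They were 37 of the 22180 genes measured: 13 of the Slc2 family, 11 of the Slc5 family and 13 of the Slc16 family. Slc2a4rg-ps, which RefSeq lists as a transcribed pseudogene, met the rule by its symbol and is no carrier, so the Slc2 family is given with and without it. The values came from 3 Affymetrix arrays of 1 group. Each array held total RNA of neurospheres, floating colonies of neural precursor cells, grown from the ventricular-subventricular zone. The donor mice were CD1, wild type, and at postnatal day 8 (day 7 or 8 in the growth protocol). The cells grew for 7 days, from a plating density of 10 cells per microlitre, in a DMEM and F12 medium to which glucose was added, with 2% B27, 10 ng/ml FGF, 20 ng/ml EGF, 2 ug/ml heparin and 0.5 mM L-glutamine. Pups were kept in separate cultures per the protocol, but the labels do not tie an array to a pup. The p-values rest on how far the 3 arrays differ over genes of like signal, not on each gene's own spread. That difference between arrays may be technical.

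Sugars, lactate and vitamins do not cross a cell membrane unaided. Slc2 proteins (the GLUT family) let sugars and polyols move down their gradients, and Slc16 proteins (the MCT family) move lactate, pyruvate, ketone bodies and related molecules, in the best known members together with a proton. Slc5 proteins draw their substrates in with sodium and work mostly in the kidney, the intestine and other epithelia, while brain cells are known to take up glucose mainly through GLUT proteins and to exchange lactate through MCT proteins.

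The array medians were between 5.85 and 5.87 on the log2 scale. Since there was no second group to compare with, genes of the nose served as a yardstick for unspecific signal. Olfactory and vomeronasal receptors had 1407 probe sets, and their 95th percentile, here the reference level, stood at 5.63, 5.53 and 5.71 on arrays 1, 2 and 3. A gene's margin is its log2 signal minus that level. Calls of genes above that level are those with an adjusted p under 0.05 in limma's moderated test, one-sided and corrected over all genes. All margins are means over the arrays, and they are in log2 units. The probe sets of different genes bind with different strength, so a margin is not an amount of RNA and genes are not ranked by it. In RNA of whole cultures, fewer cells of a type and less RNA per cell cannot be told apart. All 8 markers of astrocytes and radial glia exceeded the reference level, against 59.1% of all genes. Sox2 was at 11.39 ± 0.073 and Nes at 8.50 ± 0.035 (log2 signal, SD, n = 3), and Gfap and Aqp4 were at 12.91 and 12.44. Markers of the oligodendrocyte lineage and of neurons were above as well, so these calls do not single out precursors.

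Of the 37 genes, 19 were above the reference level (51.4%), against 59.1% of all genes. The Slc2 and Slc16 families were near the share of all genes (61.5% each), and the Slc5 family was lower (27.3%). In the Slc2 family 8 of 13 were above (7 of 12 without the pseudogene), in the Slc16 family 8 of 13, and in the Slc5 family 3 of 11. The median margin of the Slc2 family was 1.19, 1.28 and 1.12 on arrays 1, 2 and 3, a mean of 1.20 ± 0.082 (SD, n = 3), and that of the Slc16 family was 0.75, 0.85 and 0.47, a mean of 0.69 ± 0.20. Without the pseudogene the Slc2 mean was 1.31 ± 0.12. The Slc5 family had -0.29, -0.20 and -0.38, a mean of -0.29 ± 0.090, and all genes had 0.76, 0.85 and 0.69, a mean of 0.77 ± 0.078. The Slc5 median thus lay under the reference level on each of the 3 arrays and the other medians over it. In a family with an odd number of genes the median is the value of 1 gene. It was Slc2a10 in the Slc2 family and Slc5a8 in the Slc5 family. In the Slc16 family it was Slc16a3 on arrays 1 and 2 and Slc16a14 on array 3, so the lower median on array 3 is the value of Slc16a14. With the 90th percentile of the receptors as the level the Slc5 median was 0.068, and with the 99th the medians of Slc16 and of all genes were -0.086 and -0.0097.

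**Figure D1:**
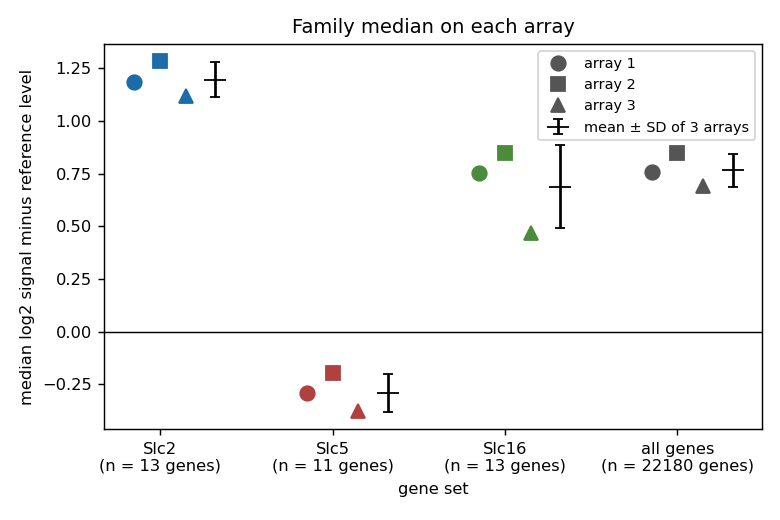
Median over the genes of each family, and over all genes, of the log2 signal minus the reference level of the array (vertical axis), for arrays 1 to 3 (circle, square, triangle), with the mean ± SD of the 3 arrays as a bar. The Slc5 medians lie between -0.38 and -0.20, under the line at 0, and the Slc2 medians between 1.12 and 1.28.

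Differences between the families do not depend on the reference level, which cancels within an array. The median signal of the Slc2 family exceeded that of the Slc5 family by 1.48, 1.48 and 1.50 on the 3 arrays, a mean of 1.49 ± 0.0092 (SD, n = 3). The Slc5 median was 5.33 on each array and the Slc2 median was the same on arrays 1 and 2, so this SD understates the spread. This difference is that between the probe sets of Slc2a10 and Slc5a8, which may bind with different strength. The Slc16 median exceeded the Slc5 median by 1.04, 1.04 and 0.85, a mean of 0.98 ± 0.11. Between the Slc2 and Slc16 medians the difference was 0.44, 0.44 and 0.65, a mean of 0.51 ± 0.12. Without Slc2a4rg-ps the Slc2 median exceeded the Slc5 median by 1.60 ± 0.032 and the Slc16 median by 0.62 ± 0.10. No test was made between families, since genes are not replicates.

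Calls near the reference level depended on how that level was set. Under all 13 alternatives tried, 9 of the 37 carriers stayed above it (24.3%), against 43.4% of all genes. They were Slc2a1, Slc2a3, Slc2a6, Slc2a8, Slc2a12 and Slc2a13, and Slc16a1, Slc16a7 and Slc16a13, with no member of the Slc5 family. A further 12 carriers were above under no setting that tested them, where 5 of them were left out with the genes of lowest signal, and 16 changed with the setting, mostly with the percentile or the genes of the reference.

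**Figure D2:**
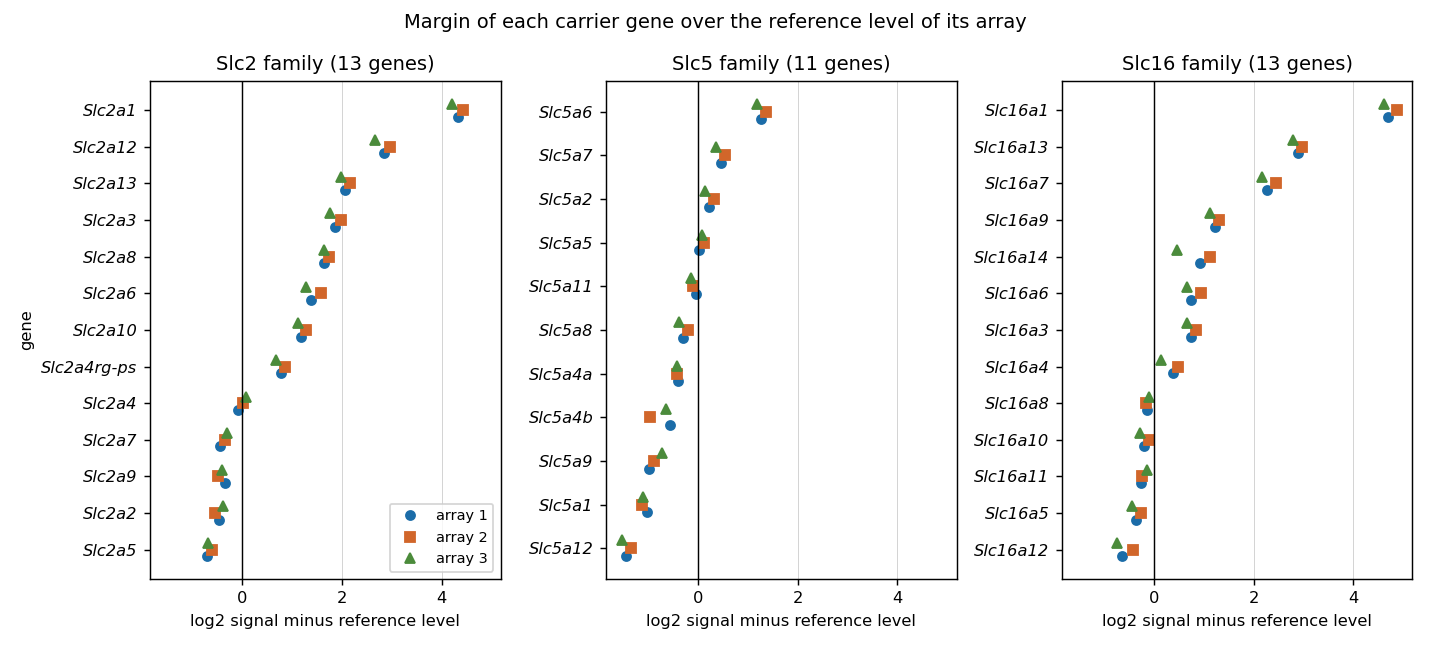
Log2 signal minus the reference level (horizontal axis, log2 units) of each of the 37 genes (rows) on arrays 1 to 3 (circle, square, triangle), by family. Slc16a1 and Slc2a1 lie more than 4 units to the right of the line at 0 on each array, and most Slc5 genes lie to its left.

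Among the class I glucose transporters, Slc2a1 and Slc2a3 were above the reference level, and Slc2a2 and Slc2a4 were not. Slc2a1 encodes GLUT1, the glucose transporter of glia, endothelium and many dividing cells, and had log2 signals of 9.95, 9.96 and 9.91 on arrays 1, 2 and 3. Its margin was 4.32 ± 0.11 (SD, n = 3), and the 3 arrays lay within 0.043 of each other. A second probe set with the same symbol read 4.80 on each array, under the reference level, and the median over both probe sets left a margin of 1.75. Slc2a3, which encodes the neuronal glucose transporter GLUT3, had 7.49, 7.52 and 7.49, a margin of 1.87 ± 0.11. The arrays again nearly coincided.

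Slc2a4, the insulin-responsive transporter GLUT4 of muscle and fat, had 5.55, 5.55 and 5.80, a margin of 0.0092 ± 0.081 (limma adjusted p = 0.733). Array 1 was under its reference level and arrays 2 and 3 were just over it. Slc2a2, the transporter GLUT2 of liver and pancreatic beta cells, had 5.17, 4.99 and 5.33 and was under the reference level on every array.

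All 5 measured class III transporters were above the reference level and none of the 3 of class II, against 59.1% of all genes. No test was made between the classes. Class III proteins mostly sit on internal membranes. Slc2a12 (GLUT12) had 8.47, 8.50 and 8.38, a margin of 2.83 ± 0.15 (SD, n = 3), with array 3 the lowest. Slc2a13, which encodes a proton-coupled myo-inositol transporter known from brain, had 7.70, 7.70 and 7.69, a margin of 2.07 ± 0.095. Slc2a8, an intracellular hexose transporter gene, had 7.28, 7.28 and 7.36, a margin of 1.68 ± 0.058. These 3 genes varied by at most 0.114 between arrays.

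Slc2a6, whose protein is found on lysosomes, had 7.00, 7.12 and 7.00, a margin of 1.42 ± 0.15 (SD, n = 3), with array 2 the highest. Slc2a10, a gene of the secretory pathway in which mutations cause arterial tortuosity, had 6.82, 6.82 and 6.83, a margin of 1.20 ± 0.082. It lost its call with the 99th percentile as the reference, where its margin was 0.42, and with other reference genes, where it was 0.38. The class II genes were Slc2a5, a fructose transporter gene, at a mean of 4.97, Slc2a7, a gene of the intestine, at 5.27, and Slc2a9, the urate transporter gene, at 5.22. Their margins were between -0.65 and -0.36, and each was under the reference level on all 3 arrays. Slc2a4rg-ps had 6.40 on each array and a margin of 0.78 ± 0.090.

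Of the lactate and pyruvate carriers Slc16a1, Slc16a3, Slc16a7 and Slc16a8, the first 3 were above the reference level, against 59.1% of all genes. Slc16a1 encodes MCT1, a lactate, pyruvate and ketone body carrier of many cell types, and had 10.32, 10.40 and 10.32, a margin of 4.72 ± 0.13 (SD, n = 3), with array 2 the highest. Slc16a7, the gene of the high-affinity neuronal carrier MCT2, had 7.89, 7.99 and 7.89, a margin of 2.30 ± 0.14. Slc16a3, the gene of MCT4, which exports lactate from glycolytic cells and astrocytes, had 6.38 on each array, a margin of 0.75 ± 0.090. The Slc16a3 call ended at the 99th percentile (margin -0.021) and with other reference genes (-0.058).

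Slc16a8 encodes MCT3, the lactate carrier of the retinal pigment epithelium and choroid plexus. It had 5.49, 5.37 and 5.62 and was under the reference level on each array, with a margin of -0.13 ± 0.032 (SD, n = 3). Of 4 measured choroid plexus markers, only Ttr was above (6.20 on each array), and Folr1 (5.25 ± 0.43), Clic6 (4.14 ± 0.32) and Kl (4.60 ± 0.33) were not. The share above was 59.1% over all genes.

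Promoter sequence is shown for Slc2a1 and for the 3 lactate carriers with an entry in the RefSeq promoter table (build GRCm38.p6), because hypoxia-inducible factors are known to act on glucose and lactate carrier genes. Each run is the 250 bases before the annotated start, 5′ to 3′ on the gene's strand, and the capitals mark ACGTG or GCGTG on either strand (CACGT or CACGC when read on the printed strand), the core these factors bind.
Slc2a1: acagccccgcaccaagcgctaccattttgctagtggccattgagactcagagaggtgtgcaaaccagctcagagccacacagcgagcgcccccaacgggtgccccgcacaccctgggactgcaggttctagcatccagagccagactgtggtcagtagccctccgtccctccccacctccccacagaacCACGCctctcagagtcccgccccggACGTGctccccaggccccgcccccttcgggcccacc
Slc16a1: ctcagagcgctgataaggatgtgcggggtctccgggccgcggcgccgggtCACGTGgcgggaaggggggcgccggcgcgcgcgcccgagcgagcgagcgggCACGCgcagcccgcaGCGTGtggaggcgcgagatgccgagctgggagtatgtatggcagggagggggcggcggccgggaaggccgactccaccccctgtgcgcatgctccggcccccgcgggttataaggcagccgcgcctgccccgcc
Slc16a3: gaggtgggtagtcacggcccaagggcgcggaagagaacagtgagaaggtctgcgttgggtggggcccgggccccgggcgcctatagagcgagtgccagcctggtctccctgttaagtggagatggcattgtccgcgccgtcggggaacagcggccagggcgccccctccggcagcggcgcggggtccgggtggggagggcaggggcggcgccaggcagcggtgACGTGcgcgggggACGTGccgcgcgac
Slc16a8: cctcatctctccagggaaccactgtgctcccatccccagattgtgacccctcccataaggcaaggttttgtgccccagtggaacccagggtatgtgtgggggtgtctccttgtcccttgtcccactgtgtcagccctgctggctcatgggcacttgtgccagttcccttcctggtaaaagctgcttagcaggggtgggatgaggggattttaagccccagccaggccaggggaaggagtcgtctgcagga
The windows lie at chr4:119108495-119108744 (plus strand, Slc2a1), chr3:104638414-104638663 (plus strand, Slc16a1), chr11:120948817-120949066 (plus strand, Slc16a3) and chr15:79254749-79254998 (minus strand, Slc16a8).

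The core stood in the windows of Slc2a1, Slc16a1 and Slc16a3 and not in that of Slc16a8, and 38.6% of all 32851 promoter windows of this length held it. In Slc2a1 it began 61 and 36 bases before the start, and in Slc16a3 27 and 14 bases before it. In Slc16a1 it began 149 and 134 bases before the start and also lay inside an E-box, CACGTG, which begins 200 bases before it and which 6.02% of all windows held. The GC box GGGCGG, bound by Sp1, was found on either strand in the windows of Slc2a1, Slc16a1 and Slc16a3 and in 32.7% of all windows, and TATAAA on either strand in none of the 4 and in 12.4% of all. CpG pairs numbered 13, 37, 29 and 1 in Slc2a1, Slc16a1, Slc16a3 and Slc16a8, against a median of 6 over all windows. These matches are a description of the letters. A comparison of promoters over the whole carrier list was void, because only 27 of the 37 genes (73%) had an entry.

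Among the other Slc16 genes, 5 of 8 of other or unknown substrate were above the reference level, against 59.1% of all genes. Slc16a13, the gene of MCT13, a carrier of little known substrate, had 8.51 on each array, a margin of 2.89 ± 0.090 (SD, n = 3). Slc16a11, its neighbour on chromosome 11 in the RefSeq gene order, had 5.37, 5.29 and 5.59, under the reference level on each array. The margins of this adjacent pair were 2.89 and -0.21.

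Slc16a9, whose protein releases carnitine from cells, had 6.85 on each array, a margin of 1.22 ± 0.090 (SD, n = 3). Its second probe set read 4.81 on each array, and the median over both left a margin of 0.21, which still passed the test. Slc16a14, an orphan carrier gene, had 6.56, 6.65 and 6.18, a margin of 0.84 ± 0.33, with array 3 lower than the others by more than their own difference. Slc16a6 (MCT7), known for ketone body export from liver, had 6.38, 6.47 and 6.38, a margin of 0.79 ± 0.14. Slc16a4, another orphan, had 6.01, 6.01 and 5.86, a margin of 0.33 ± 0.17, and was over the reference level by 0.145 on array 3. With other reference genes the margin of Slc16a9 was 0.41 and its call ended. The calls of Slc16a4, Slc16a6 and Slc16a14 ended at the 99th percentile of the receptors and with other reference genes.

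The other Slc16 genes were not above the reference level. Slc16a12, a creatine transporter gene, had a mean of 5.03, Slc16a5 (MCT6) 5.27, and Slc16a10, an aromatic amino acid transporter gene, 5.44. All were under the reference level on every array. Slc5a3, the main myo-inositol carrier gene, and Slc5a10 were not analysed here, since neither had a probe set with that symbol alone. A carrier symbol stood together with another gene's on 3 probe sets, which were not used.

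The sodium-coupled sugar carriers were mostly under the reference level, with 1 of 5 measured above it, against 59.1% of all genes. Slc5a1, the intestinal glucose carrier SGLT1, had 4.61, 4.41 and 4.61, a margin of -1.08 ± 0.057 (SD, n = 3). Slc5a9, a mannose carrier gene, had a mean of 4.77 ± 0.20, and the adjacent genes Slc5a4a and Slc5a4b had means of 5.21 and 4.91. These were under the reference level on each array. Slc5a2, the kidney glucose carrier SGLT2, had 5.85 on each array and was the member above the level with the smallest margin, 0.22 ± 0.090 (limma adjusted p = 0.00319). Its call ended without replicate 1 (limma adjusted p = 0.125), at the 99th percentile (margin -0.55) and with other reference genes (margin -0.59). Over its alternatives the adjusted p ran from 7.39e-17 to 1. Pdzk1ip1, which encodes the accessory protein SGLT2 needs for activity, had 5.81 on each array, a margin of 0.19 ± 0.090.

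Of the Slc5 carriers of other substrates, 2 of 5 were above the reference level, against 59.1% of all genes. Slc5a6, the gene of the biotin and pantothenate carrier SMVT, had 6.89 on each array, a margin of 1.27 ± 0.090 (SD, n = 3). It stayed above it under every alternative but the other reference genes (margin 0.45). Slc5a7, the choline carrier gene of cholinergic neurons, had 6.09 on each array, a margin of 0.46 ± 0.090, which ended at the 99th percentile (-0.31). The cholinergic markers Chat (5.03 ± 0.20) and Slc18a3 (5.05 ± 0.063) were not above the reference level, and Ache, which is not confined to those neurons, was (5.82 ± 0.17).

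Slc5a5, the iodide carrier gene of the thyroid, had 5.65, 5.65 and 5.80, a margin of 0.075 ± 0.048 (SD, n = 3), over the reference level on each array but not called (limma adjusted p = 0.271). Slc5a11, a myo-inositol carrier gene, was under it by 0.088 ± 0.043. The sodium-coupled lactate carrier genes Slc5a8 (5.33 on each array) and Slc5a12 (4.19 on each array) were under it on every array. Slc5a5 and Slc5a2 were thus the genes just outside and just inside the call.

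Markers of cells that could bring carrier RNA of their own were read beside these values. Over all genes, 59.1% were above the reference level. Of 7 endothelial markers, 1 (Kdr, 6.84 ± 0.064) was above the reference level, while Cldn5, Pecam1, Cdh5, Tek, Flt1 and Esam, at means of 4.84 to 5.48, were under it on every array. Endothelium is a known site of Slc2a1 and Slc16a1. Of 7 microglia and macrophage markers, 3 were above (Cx3cr1, P2ry12 and Cd68), with Csf1r at 5.55 on each array and Tmem119 at 5.59 ± 0.24 near the level, each over it on 1 array, and Ptprc at 4.27 ± 0.090 and Aif1 at 4.73 ± 0.27 under the level. Slc2a5, a fructose transporter gene known from microglia, was under it as well. Of 6 listed red blood cell markers 3 were measured, without the globin genes and Alas2. Of these 3, 0 were above by limma, also at an unadjusted p under 0.05 (Slc4a1 5.71, Epb42 5.04, Klf1 5.63). Slc4a1 was over the level on each array and Klf1 on 2 arrays, neither with a call. Of 5 mural markers, 3 were above (Pdgfrb 6.99 ± 0.11, Rgs5 7.25 ± 0.12 and Acta2 7.45 ± 0.0092), and of 5 ependymal markers 1 was (Foxj1, 7.86 ± 0.024). All 7 measured oligodendrocyte lineage markers (of 8 listed) and all 6 neuroblast and neuron markers were above. The part of any of these cell types in the carrier signals was not tested.

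In the lists of genes that work with the carriers, 48 of 58 genes were measured. Of these 48, 41 were above the reference level (85.4%), against 59.1% of all genes. These lists were chosen by hand with earlier results known, so the share is a description. It was 75% with the 99th percentile of the receptors or with other reference genes, against 44.9% and 43.5% of all genes. Of 6 measured chaperones and accessory proteins all were above, but Pdzk1ip1 was not without replicate 1, without replicate 2 or with either of those references. Emb was not above with either of those references. Bsg, which encodes basigin, the partner that brings MCT1 and MCT4 to the membrane, had 11.59, 11.59 and 11.58, and Emb, which encodes embigin, the partner of MCT2, had 6.34, 6.53 and 6.34. The margins were 5.96 ± 0.092 and 0.78 ± 0.20. Nptn, which encodes neuroplastin, another partner of the family, had 11.76 on each array.

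Of 14 regulators of glucose uptake, 13 were above the reference level, against 59.1% of all genes. They included Txnip (10.55 on each array) and Arrdc4 (9.93 on each array), arrestin-like genes whose proteins withdraw glucose transporters from the membrane, and the hypoxia factor gene Hif1a (10.82 on each array). With the median over probe sets the margin of Hif1a was 2.64 in place of 5.20. The glucose sensor gene Mlxip had 8.82, and its relative Mlxipl (ChREBP), known from liver and fat, had 5.70 and was not above (limma adjusted p = 0.281). The hexokinase genes Hk1 (7.84) and Hk2 (6.52) were above, while Hk3 (5.25), Hkdc1 (5.39), the liver regulator gene Gckr (4.52) and the glucose-6-phosphatase gene G6pc (5.47) were not. In that list of glucose trapping and release 4 of 8 measured genes were above (9 were listed), a share of 50% against 59.1% of all genes. Hk2 lost its call with the 99th percentile of the receptors and with other reference genes.

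Of 13 listed genes of lactate and pyruvate handling 12 were measured, and 11 of these were above the reference level, against 59.1% of all genes. With the median over probe sets Pdk1 was not above (margin -0.28), and the margin of Mpc1 was 3.80 in place of 6.27. Ldhal6b, at a mean of 6.21 and a margin of 0.58, was above. It was not above with the 99th percentile of the receptors or with other reference genes. Ldha and Ldhb, the genes of the lactate dehydrogenase subunits, had means of 8.01 and 10.49, the mitochondrial pyruvate carrier gene Mpc1 had 11.89, and the pyruvate dehydrogenase kinase gene Pdk4 had 8.74. The testis gene Ldhc (4.91) was not above. Of 10 listed genes of fructose, polyol and inositol handling only 5 were measured, and 4 of these were above. Ketohexokinase, Khk, was above at 6.14 ± 0.061, and the kidney inositol oxygenase gene Miox was not above at 5.40. Khk lost its call under the same references as Ldhal6b. The ketone body genes Bdh1 (8.60), Oxct1 (9.96) and Acat1 (10.33), whose proteins act on substrates that MCT1 and MCT2 carry, were all above. They were the 3 measured of 5 listed genes.

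**Figure D3:**
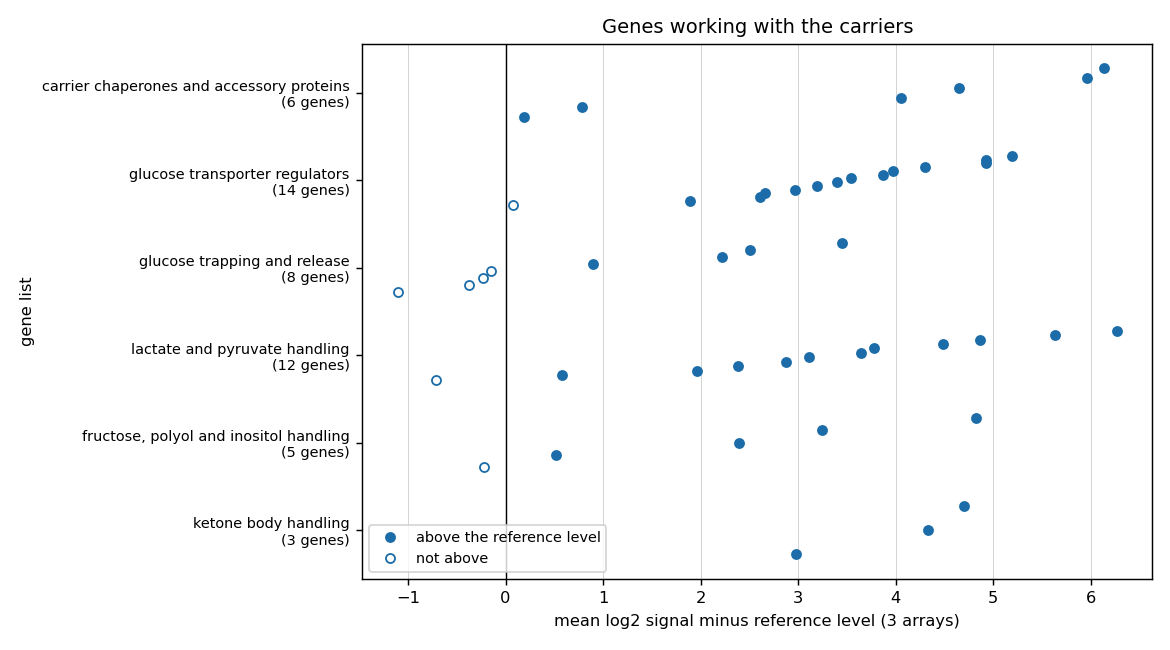
Mean log2 signal minus the reference level over 3 arrays (horizontal axis, log2 units) for 48 genes in 6 lists (rows) of proteins that work with the carriers, filled where above the reference level by limma and open where not. Of the 7 open points, 4 are in the list of glucose trapping and release.

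The median range between arrays was 0.102 log2 units over the carriers and 0.036 over all genes. Exactly equal values on all 3 arrays were found for 11 of the 37 genes and on 2 arrays for 17, or 29.7% and 45.9%, against 39.4% and 35.7% of all genes, so that an SD of a signal at or near 0 understates the spread. The SD of such a gene's margin comes from the reference levels alone. A range over 0.25 log2 units between arrays was found for 5 of the 37 genes, and for 16.9% of all genes. They were Slc5a4b (range 0.493), Slc16a14 (0.468), Slc5a9 (0.354), Slc2a2 (0.339) and Slc16a11 (0.298), and only Slc16a14 among them was above the reference level.

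The carriers above the reference level had a median range of 0.037 and those not above 0.194. Over all genes these were 0.030 and 0.056. Slc16a14 and Slc5a4b exceeded the 90th percentile of the range of genes of like signal (0.351 and 0.438). Slc16a14 was lowest on array 3 and Slc5a4b on array 2, where it had 4.58 against 5.07 on the others. Array 1 alone was highest or lowest for none of the carriers, and was so for 3.32% and 4.46% of all genes. Array 3 alone was highest for 12 carriers (32.4%) and for 15.6% of all genes, and array 2 alone for 9 (24.3%) and 24% of all genes. Array 2 alone was lowest for 8 (21.6%) and for 16.4% of all genes, and array 3 alone for 6 (16.2%) and 21.7%.

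**Figure D4:**
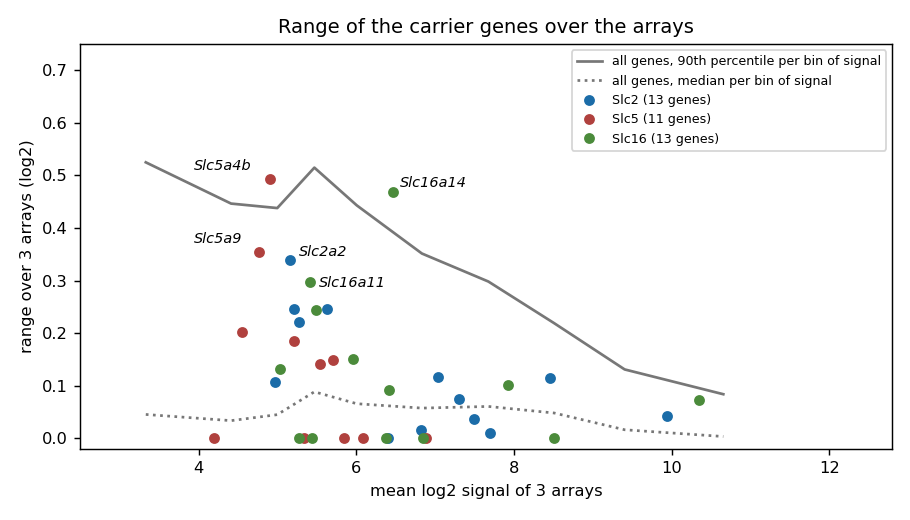
Range over the 3 arrays (vertical axis, log2 units) against mean log2 signal (horizontal axis) for the 37 genes, coloured by family, with the median (dotted) and 90th percentile (line) of all genes in 10 bins of signal with about equal numbers of genes. Slc16a14 at 0.468 and Slc5a4b at 0.493 lie above the 90th percentile of genes of like signal.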

How the data were processed

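Per the labels, biotin-labelled total RNA of 3 neurosphere cultures was hybridised to Affymetrix arrays. The authors deposited log2 signals of 41345 probe sets. Per the submitters' processing notes they used RMA. Its version and options are not given in the sources used here. RMA corrects background, normalises between arrays and summarises probes, so small differences between arrays may be reduced. Of the probe sets, 23521 carried 1 gene symbol in the platform annotation, 1814 several and 16010 none. The first kind gave 22180 genes, each read by its probe set with the highest mean. All 37 members kept their symbol in RefSeq.

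Margins over the reference level were tested with limma 3.58.1 in R 4.3.3 (intercept, eBayes with an intensity trend, one-sided) and adjusted over all genes by Benjamini-Hochberg. The prior degrees of freedom came out infinite, so genes of like signal shared 1 spread. Family medians and ranges were described without a test. On simulated data with 22180 genes, the test recovered 42 of 50 genes set at a margin of 0.25 and 50 of 50 at 0.5, with 0 false calls among 6116 genes at least 0.5 under the level. Genes nearer to the level were not counted among these, so that 0 does not bear on calls near it. Every member of the 3 families is named, with list members as examples. Members and lists were chosen with earlier results of these data known. The precision is limited by the number of arrays, n = 3. Figures were drawn with matplotlib 3.10.9.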

Additional observations from a re-analysis of the deposited data

How the results depend on the processing

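No paired analysis was possible because the 3 arrays form 1 group. Of the 37 carriers, 21 kept their side of the threshold under the alternatives that tested them, 9 above the reference level under all 13 and 12 not, of which 5 were left out with the genes of lowest signal. With the 99th percentile of the receptors as the reference, 11 carriers were above it (44.9% of all genes), with 1 in the Slc5 and 4 in the Slc16 family. The median margins were then 0.42 for Slc2, -1.07 for Slc5, -0.086 for Slc16 and -0.0097 for all genes. Among carriers called above under either level, the margin changed sign for Slc16a3 (-0.021), Slc16a4 (-0.44), Slc5a2 (-0.55) and Slc5a7 (-0.31). With 142 probe sets of bitter taste receptors, defensins and keratin-associated proteins as the reference, 9 carriers were above it (43.5% of all genes), 0 of the Slc5 (1 at an unadjusted p under 0.05) and 3 of the Slc16 family by limma. The medians were 0.38 for Slc2, -1.10 for Slc5, -0.12 for Slc16 and -0.046 for all genes. Among those called under either, it changed sign for Slc16a3 (-0.058), Slc16a4 (-0.48), Slc16a6 (-0.022), Slc2a4rg-ps (-0.034), Slc5a2 (-0.59) and Slc5a7 (-0.35). With the 90th percentile, 25 carriers were above it (66.7% of all genes), with 5 in the Slc5 family, and the medians were 1.55, 0.068, 1.05 and 1.12 for Slc2, Slc5, Slc16 and all genes. Among those called under either, the margin turned positive for Slc16a8 (0.23), Slc16a10 (0.17), Slc16a11 (0.15) and Slc5a11 (0.27). The changes of sign follow from a higher or lower reference level. Some calls, such as that of Slc2a10, ended with the margin still positive. The level of the other reference genes was 6.40, 6.11 and 6.81 on arrays 1, 2 and 3, and differed more between arrays than the main level of 5.63, 5.53 and 5.71.

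When probe sets of a gene were replaced by their median, the Slc16 median was 0.33, since the second probe set of Slc16a9 is low. Leaving out each replicate in turn gave 18 to 19 carriers above the reference level, against 56.4% to 58.7% of all genes. Carriers with a range over 0.25 then numbered 5, 2 and 1 without replicates 1, 2 and 3, against 15.7%, 7.07% and 8.67% of all genes. Centring, quantile normalization and eBayes without a trend or robust left 19 above, against 58.8% to 59.4% of all genes. Leaving out the genes of lowest signal also left 19 above, against 78.9% of the genes that remained. Requiring each array to exceed its reference level gave 20, with Slc5a5 added, against 59.6% of all genes. With 3 arrays of 1 group, no difference between conditions can be seen.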

Other observations

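Exact values recurred between probe sets of different genes. On array 1, 20946 of 41345 probe sets (50.7%) had a value that another probe set also had, to the last digit deposited, and so did 19 of the 37 carriers. On array 2 it was 43.2% of probe sets and 12 carriers, and on array 3 45.1% and 14 carriers. Slc5a2 and the acetylcholinesterase gene Ache both read 5.85 on array 1, for example, where they are equal in every digit. Slc5a4b equals the unused probe set of Slc16a5 at 5.07 on arrays 1 and 3. On array 2 they differ, with Slc5a4b at 4.58. These pairs were chosen after their values were seen.

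Slc2a1 and Slc16a9 each had a second probe set under the reference level on every array, at 4.80 and 4.81, while the probe set used read 9.94 and 6.85. The second probe set of Slc16a5 (5.07) and the one used (5.27) were both under it.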
